A study of Mus musculus with 43 samples.

Results

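Histone H3 dimethylated asymmetrically at arginine 8 (H3R8me2a) was mapped by CUT&Tag in wild-type (WT) testicular cells of C57BL/6J mice at postnatal day 7 (P7) and postnatal day 14 (P14). The 4 peak lists examined here, 2 for each age, were taken by their sample labels, which name the antibody, the age and the WT genotype. They are 4 of 31 WT lists and of 33 CUT&Tag lists in a series of 43 samples, and they hold 94216 of the 873055 peaks that the WT lists of 7 marks hold together. The question was where the mark lies at each age and which promoters carry it at P7, at P14 or at both. For both ages the tubules were freed of interstitial cells, made into a suspension of single cells and passed through a strainer that holds back Sertoli cells, with no cell sorting. The protocol text also mentions tamoxifen, which induces the series' conditional knockout, and does not say whether these WT mice received it. Spermatogonia dominate the germ cells of the P7 testis, and spermatocytes have joined them at P14. The P14 samples are called spermatogonia in their titles and spermatocytes in their cell type field, so the cells of that age cannot be named more closely. Nothing in the labels says whether the 2 lists of an age come from separate mice, so their spread may be technical.

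Arginine residues are methylated by the protein arginine methyltransferases (PRMTs). The type I enzymes add 2 methyl groups to the same terminal nitrogen, which gives the asymmetric form, and type II enzymes place them on different nitrogens, which gives the symmetric form. H3R8me2a has been attributed to Prmt2, lies close to lysine 4 on the tail of histone H3 and is known from active promoters, where trimethylated lysine 4 (H3K4me3) is the common mark. Acetylated lysine 27 of H3 (H3K27ac) marks active promoters and enhancers. CUT&Tag brings a transposase to the antibody, which cuts and tags DNA beside the mark, and peaks are the places where tagged fragments pile up over their surroundings.

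The strongest peaks were of different kinds, and their sequences are shown first for that reason. A gene was called kept when all 4 lists had a peak summit within 3000 bp of one of its transcription start sites (its promoter), gained when both P14 lists and no P7 list did, and lost when both P7 lists and no P14 list did. The windows below are the bases around the summit of the best list, on the plus strand of GRCm38, cut short where an untranslated region began. Capitals mark matches, on either strand, to any of 9 short motifs described further on. The first 3 belong to the kept genes that ranked best by the −log10 p within each list, and the fourth to the best region outside promoters that all 4 lists held.
Zc3h7a, chr16:11143958-11144157: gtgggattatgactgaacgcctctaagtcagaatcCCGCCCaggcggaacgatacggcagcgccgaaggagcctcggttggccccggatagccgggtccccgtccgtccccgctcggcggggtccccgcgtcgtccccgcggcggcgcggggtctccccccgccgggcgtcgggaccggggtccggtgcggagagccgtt
Gm10800, chr2:98666946-98667145: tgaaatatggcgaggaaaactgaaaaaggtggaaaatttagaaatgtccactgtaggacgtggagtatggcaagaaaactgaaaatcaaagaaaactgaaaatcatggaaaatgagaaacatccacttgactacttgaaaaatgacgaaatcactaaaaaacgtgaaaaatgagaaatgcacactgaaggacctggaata
Aida, chr1:183299224-183299423: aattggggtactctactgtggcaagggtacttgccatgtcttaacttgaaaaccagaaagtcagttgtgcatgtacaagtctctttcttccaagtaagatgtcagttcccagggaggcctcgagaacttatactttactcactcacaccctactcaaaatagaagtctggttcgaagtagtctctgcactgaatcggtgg
intron of Cmss1 and Filip1l, chr16:57391303-57391502: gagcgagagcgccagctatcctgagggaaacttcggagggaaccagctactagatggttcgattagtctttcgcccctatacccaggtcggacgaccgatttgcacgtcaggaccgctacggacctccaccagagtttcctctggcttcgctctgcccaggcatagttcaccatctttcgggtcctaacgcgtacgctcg
The next 3 are gained genes, ranked 1, 2 and 4.
Kdm3a, chr6:71633105-71633304: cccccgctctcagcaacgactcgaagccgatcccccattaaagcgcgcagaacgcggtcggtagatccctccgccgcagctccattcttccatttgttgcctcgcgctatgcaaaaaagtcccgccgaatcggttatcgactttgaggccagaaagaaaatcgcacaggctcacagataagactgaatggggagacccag
Pole4, chr6:82652698-82652839: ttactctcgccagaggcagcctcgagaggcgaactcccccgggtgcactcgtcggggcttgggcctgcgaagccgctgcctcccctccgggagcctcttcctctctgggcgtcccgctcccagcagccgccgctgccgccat
Ctsz, chr2:174441867-174442066: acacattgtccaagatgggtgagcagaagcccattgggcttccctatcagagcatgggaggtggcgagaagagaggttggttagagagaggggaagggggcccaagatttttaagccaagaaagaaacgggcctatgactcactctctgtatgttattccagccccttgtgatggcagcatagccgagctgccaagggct
The last 3 are promoters of meiotic genes that were gained, chosen for display after their values were seen.
Syce1, chr7:140787610-140787809: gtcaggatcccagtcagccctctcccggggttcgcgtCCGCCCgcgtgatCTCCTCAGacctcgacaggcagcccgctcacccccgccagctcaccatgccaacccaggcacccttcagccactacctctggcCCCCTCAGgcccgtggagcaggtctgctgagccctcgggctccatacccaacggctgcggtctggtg
Syce2, chr8:84872299-84872498: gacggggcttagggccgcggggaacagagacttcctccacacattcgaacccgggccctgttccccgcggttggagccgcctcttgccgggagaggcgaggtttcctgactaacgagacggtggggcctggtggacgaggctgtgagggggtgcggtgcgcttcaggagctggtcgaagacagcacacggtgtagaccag
Sycp2, chr2:178407686-178407809: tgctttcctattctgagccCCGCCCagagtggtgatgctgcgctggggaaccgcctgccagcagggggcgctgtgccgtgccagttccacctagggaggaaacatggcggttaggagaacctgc

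The windows of Zc3h7a, Gm10800 and Aida all lie in introns of those genes, and each belongs to a region that every one of the 27 WT lists of the other 6 marks also held. The Gm10800 window is repeat-masked over 100% of its bases. The Zc3h7a window is GC-rich (74.0% G or C, with 31 CpG) and 0% masked. Whether the sequence of any window also occurs elsewhere in the genome was not examined, and masking does not answer it. The gained windows differ from these. Kdm3a, which encodes a histone H3 lysine 9 demethylase, had summits at -287 and -215 bases from a start site, upstream of it, in a window with 18 CpG. The Pole4 window, in a coding exon of the gene of a DNA polymerase epsilon subunit, was 71.8% G or C. The Ctsz window, intergenic and with summits at -2947 and -2928 bases from the cathepsin Z start, held 3 CpG and was held by 0 of the 27 other lists.

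The lists were longer at P14. They held 15547 and 15361 peaks at P7 and 33932 and 29376 peaks at P14, a mean of 15454 ± 132 against 31654 ± 3222 (SD, n = 2 lists each) and a ratio of 2.05. Both P14 lists were above both P7 lists. With 2 lists against 2, the smallest two-sided p that an exact permutation test can give is 0.33, and that was the p here (0.416 after Benjamini-Hochberg adjustment over 5 comparisons). Read numbers behind the lists are unknown, so a longer list, deeper sequencing and more of the mark cannot be told apart. In these mixed suspensions, more cells with the mark and more of the mark in each cell cannot be told apart either. The P14 lists also differed from each other. A q of at most 0.01 was reached by 2205 and 2279 peaks at P7, and by 5621 and 9468 peaks at P14, which was 14.2%, 14.8%, 16.6% and 32.2% of the lists, so that the second P14 list stood apart from the other 3.

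A larger share of the P14 peaks lay at promoters. Summits within 3000 bp of a start site made up 37.0% and 37.9% of the P7 lists and 40.7% and 46.1% of the P14 lists, against 15.1% of the genome. The means were 37.5% ± 0.648 and 43.4% ± 3.81 (SD, n = 2 each, exact permutation p = 0.33). Between lists cut to the same length, the best 15361 peaks of each by −log10 p, the difference was wider, with 50.6% and 52.7% at P14 and 37.0% and 37.9% at P7. The cut removed few or no P7 peaks but the weaker peaks of each P14 list. The median −log10 p after it was 4.2 in each P7 list and 5.34 and 5.57 in the P14 lists. Introns held 30.3%, 29.1%, 28.8% and 25.5% of the summits, and intergenic sequence 30.1%, 30.5%, 27.6% and 25.6%. The P14 promoter summits were also nearer to the start site. Their median distance was 293 and 273 bases at P14 and 462 and 429.5 bases at P7. In every list more promoter summits lay downstream than upstream of the nearest start site, 57.7% and 55.7% at P7 and 61.0% and 62.0% at P14.

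**Figure D1:**
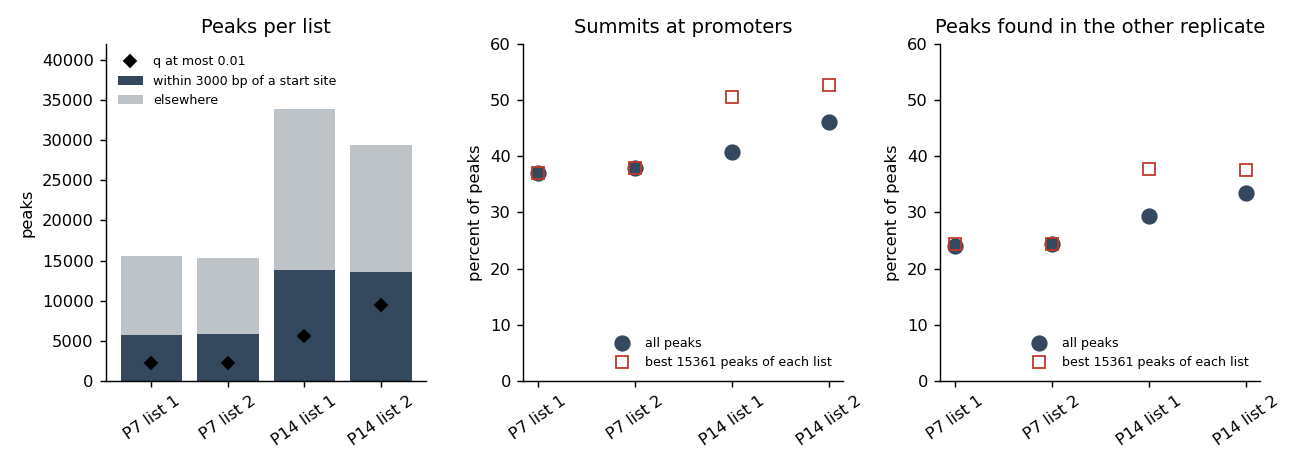
Left, peaks per H3R8me2a list, with bars split by whether the summit lies within 3000 bp of a start site and diamonds for the peaks at a q of at most 0.01. Middle and right, the percent of summits at promoters and the percent of peaks that the other list of the same age also holds, for all peaks (filled circles) and for the best 15361 peaks of each list (open squares). At equal length the P14 lists sit at 50.6% and 52.7% for promoters and at 37.8% and 37.5% for replicate overlap, and both P7 lists below them.

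**Figure D2:**
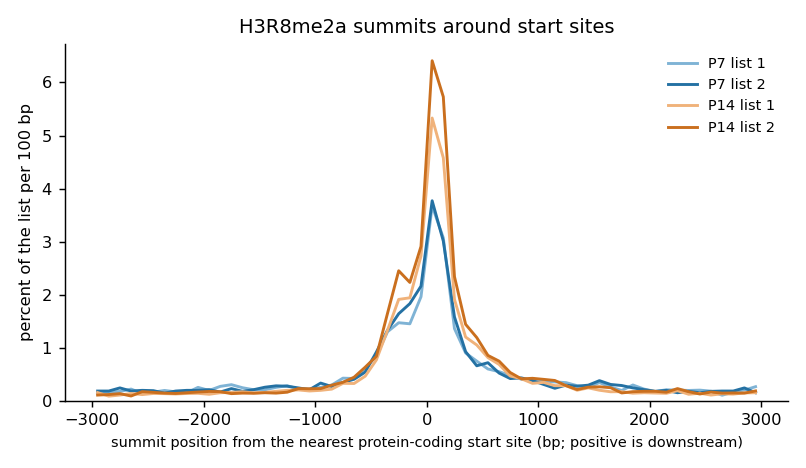
Percent of each list's summits in steps of 100 bp around the nearest start site of a protein-coding gene, on a linear axis with downstream positions positive. All 4 lists peak just downstream of the start, and both P14 lines stand above both P7 lines there.

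Peaks were narrow at both ages. The median width was 266 and 264 bases at P7 and 270.0 and 296 bases at P14, a mean of 265 ± 1.41 against 283 ± 18.4 (SD, n = 2 each, exact permutation p = 0.33). MACS2 returned no peak under 200 bases, and 25.6%, 26.4%, 26.2% and 17.2% of the peaks were at that floor. The first P14 list was therefore like the P7 lists and the second was wider. Peaks over 1000 bases numbered 134 and 111 at P7 and 285 and 452 at P14. At P14 promoter peaks were wider than the others, with medians of 296 against 254 bases in the first list and 319 against 278 bases in the second. At P7 the difference was smaller, 271 against 263 and 269 against 262 bases.

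Most peaks did not recur. Of the P7 peaks, 24.1% and 24.4% overlapped a peak of the other P7 list by at least 1 bp, and of the P14 peaks 29.3% and 33.4% overlapped one of the other P14 list (24.2% ± 0.224 against 31.4% ± 2.93, SD, n = 2 each, exact permutation p = 0.33). At equal length the shares were 24.3% and 24.3% at P7 and 37.8% and 37.5% at P14. The ages differed in which peaks recurred. At P7 promoter peaks recurred as often as the others, 24.5% and 24.4% against 23.8% and 24.3%. At P14 promoter peaks recurred in 45.2% and 45.5% of cases and other peaks in 18.4% and 23.1%. Recurrence followed the score of the peak. Of the best 10% of each list by −log10 p, 78.3% and 77.7% recurred at P7 and 84.8% and 86.7% at P14, and of the weakest 10% the shares were 10.2%, 9.17%, 11.5% and 12.5%. What the best 10% held also differed between the ages. Promoters made up 31.3% and 31.4% of it at P7 and 64.6% and 63.0% at P14.

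Merged over the 4 lists, the peaks formed 69792 regions, of which 55082 (78.9%) came from a single list. There were 2537 regions with peaks in all 4 lists, 4456 with peaks in both P14 lists and no P7 list, and 580 with peaks in both P7 lists and no P14 list. These sets differed in place. Promoters held 68.3% of the regions found at P14 only, 44.6% of those found in all 4 lists and 29.1% of those found at P7 only. H3K4me3, in both of its lists for at least 1 age, was present at 61.5%, 59.5% and 8.97% of them. Regions with a peak in 1 P14 list alone were at promoters in 33.7% of cases, and those in 1 P7 list alone in 30.3%.

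Some regions were shared with every other mark. All 31 WT lists held 348 of the regions, including 118 at promoters and 37 on unplaced contigs, with a median width of 793 bases. Each of the 10 best kept genes owed its best peaks to such a region. A region of this kind has a peak in both P7 lists of H3R8me2a, so a gained gene could not owe its peaks to one. At the Zc3h7a region the fold enrichment, a ratio over local background within a list, was 20.1 and 20.5 at P7 and 20.5 and 19.3 at P14. At Aida and Brox, which overlap head to head and share 1 region, it was 17.3 and 19.5 at P7 and 18.7 and 17.9 at P14. The best region outside promoters, shown above from the Cmss1 and Filip1l introns, had values of 21.8, 21.0, 22.2 and 20.5. The next, chr3:5860225-5860963, was intergenic with 20.2, 20.7, 21.3 and 20.4, and the third, chr11:109011464-109012267, was intergenic with values between 18.3 and 20.8. All 3 were in every list of the other 6 marks. The enrichments at these places were close to equal in the 4 lists. Without the 348 regions 1628 kept and 2806 gained genes remained to be counted, and replicate overlap was 22.4% at P7 and 30.6% at P14 on average.

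The base composition of the recurring regions differed with their place and with the lists that held them. In windows of 300 bases around the summit, the median share of G and C was 62.0% at promoters held by all 4 lists and 64.3% at promoters held by both P14 lists alone, compared with 52.3% at promoters held by both P7 lists alone and 58.0% at all protein-coding gene starts. The ratio of observed to expected CpG had medians of 0.742, 0.758, 0.219 and 0.589 in the same order. Promoter regions of 1 P7 list alone had medians of 51.7% and 0.229, close to those of both P7 lists alone. Away from promoters the regions of all 4 lists had a median CpG ratio of 0.104 and were on average repeat-masked over 54.9% of their bases, against 36.4% in windows spread over the genome. Away from promoters, regions of both P14 lists alone were masked over 36.2%, close to the genome.

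Short motifs were searched on both strands of the same windows, as a description. The GC box (GGGCGG), bound by Sp and Klf factors, was in 49.5% of promoter regions found at P14 only, 47.9% of those in all 4 lists and 10.7% of those found at P7 only, with 45.5% of all gene starts and 2.82% of genome windows holding it. The ETS motif (CCGGAAGT) was in 3.98%, 3.46% and 0.592% of those regions and in 4.86% of gene starts. The CCAAT box (AGCCAAT) was in 3.35%, 6.74% and 3.55%, against 8.76% of gene starts. The motif of Stra8 (CNCCTCAG), the factor that germ cells switch on at meiotic entry, was in 11.9%, 11.9% and 7.69%, against 9.51% of gene starts. The Syce1 window above holds 2 matches to it. The NRF1 (GCATGCGC), CRE (TGACGTCA), MYB (AACNGTC), RFX (GTTGCCA) and YY1 (AAGATGGC) motifs were each in at most 6.01% of the regions found at P14 only. Among all gene starts the most frequent of these 5 was MYB, at 7.35%.

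Genes were then compared. The promoters of 4621 and 4724 protein-coding genes held a summit in the P7 lists, and those of 9874 and 9957 in the P14 lists. Both P7 lists marked 2131 genes, which was 29.5% of the genes in either list, and both P14 lists marked 7239, which was 57.5%. Of the 21951 protein-coding genes, 1721 (7.84%) were kept, 2800 (12.8%) were gained, 105 (0.478%) were lost and 8330 (37.9%) were in no list. The remaining genes had other patterns, the most frequent being 3607 genes with 1 P14 list alone. Of the genes marked at P7, 80.8% were also marked at P14, and of those marked at P14, 23.8% were also marked at P7.

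With lists of equal length 1373 genes (6.25%) were kept, 1419 (6.46%) were gained and 275 (1.25%) were lost, so that gained genes still outnumbered lost ones. Of the gained genes 1412 were gained under both lengths, and so were 103 of the lost genes. At a q of at most 0.01 the counts were 202 kept, 1840 gained and 11 lost. Among the 13022 genes whose promoters had H3K4me3 in all 4 H3K4me3 lists, 1642 (12.6%) were kept, 2531 (19.4%) were gained, and 1370 (10.5%) were gained at equal length. A kept gene need not have kept its place. Of the 1721 kept genes 1162 had a single region common to all 4 lists, and 449 shared such a region with another protein-coding gene's promoter. Dnmt3a, a DNA methyltransferase with several start sites, is an example of the rest, with its best peaks at 2340 and -613 bases from a start in the P7 lists and at 1276 and -2140 bases from others in the P14 lists. Of the 2800 gained genes 2097 had a region common to both P14 lists and found in no P7 list.

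The gained promoters were mostly promoters already marked by H3K4me3 at P7. Both P7 lists of H3K4me3 marked 91.0% of the 2800 gained genes, against 60.7% of all protein-coding genes, and both P14 lists marked 92.9%. H3K27ac was in both lists at 54.3% of them at P7 and at 80.3% at P14, against 31% and 48.9% of all genes. Asymmetric H3R2me2a, on the neighbouring arginine, was at 15.0% and 81.6% of them, against 11% and 51.3% of all genes. Asymmetric H4R3me2a was at 2.86% and 51.9%, against 4.27% and 29.7%. Symmetric H4R3me2s was at 25.9% and 25.4%, against 17.8% and 16.4%. For these 2 marks too, every list of the age had to hold a summit. H4R3me2a has 3 lists at each age, and H4R3me2s has 2 at P7 and 3 at P14. The rule was thus stricter for them where 3 lists were needed, and the ages of H4R3me2s are not on a like footing. Kept genes carried the other marks more often at P7, with H3K27ac at 82.1% and H3R2me2a at 688 of 1721. The lost genes had H3K4me3 at 74.3% at P7 and 73.3% at P14. Under the same rule, full lists of other marks also held more gained than lost genes, 4676 against 40 for H3R2me2a, 2147 against 183 for H4R3me1, 1739 against 71 for H3K27ac and 443 against 101 for H3K4me3. With the lists of each mark cut to the same length the counts were 2358 against 247, 1648 against 242 and 1017 against 181, while for H3K4me3 they turned to 153 gained against 419 lost.

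Lists of equal length were set against each list of the other marks. The best P7 peaks of H3R8me2a overlapped the other P7 list of H3R8me2a in 24.3% of cases, and the P14 lists of the same mark in 23.9% to 28.0%. They overlapped P14 lists of H3R2me2a in 24.2% to 24.9% and P7 lists of H3K4me3 in 19.8% to 20.8%. The best P14 peaks overlapped each other in 37.5% to 37.8%. They overlapped P14 lists of H3R2me2a in 37.3% to 40.8%, P14 lists of H3K4me3 in 38.4% to 41.4%, P7 lists of H3K4me3 in 38.4% to 41.1% and P14 lists of H3K27ac in 32.2% to 42.2%. The overlap between the replicates of the mark lay within or below the ranges for H3R2me2a, H3K4me3 and H3K27ac at P14.

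**Figure D3:**
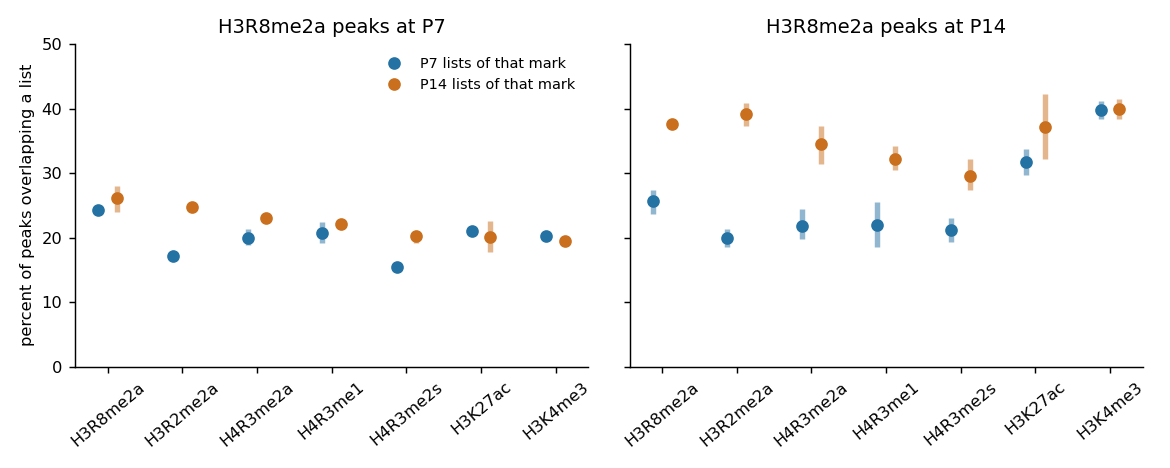
Percent of the best 15361 H3R8me2a peaks of a list that overlap a list of equal length of each mark, at P7 (left) and P14 (right). Points are means over pairs of lists and bars their range, blue for P7 lists and orange for P14 lists of the named mark. P7 peaks stay between 15.2% and 28.0% with every mark, and P14 peaks reach 42.2%.

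The 10 best gained genes, picked by score, had summits in both P14 lists. Kdm3a (chr6:71588972-71632990) had fold enrichments of 7.45 and 7.03, Pole4 (chr6:82618992-82705365) 6.62 and 6.4, Baz1b, which encodes a chromatin remodelling subunit, 6.22 and 5.25, and Stt3b, a subunit of the oligosaccharyl transferase, 5.81 and 5.29. Sec11c, a signal peptidase subunit, had 6.42 and 6.18. Larp7, which encodes a protein that binds the 7SK RNA, and Zgrf1 are divergent neighbours that share a region with 6.6 and 5.15. Gm20422 and the zinc finger gene Zfp866 overlap and share another, with 7.09 and 5.59. All of these but Ctsz were also held by 20 to 25 of the 27 lists of other marks. The 5 best lost genes were weaker. Ctc1, a telomere replication factor, had 4.3 and 3.79, at different start sites, Dao (D-amino acid oxidase) 5.03 and 3.59, Omt2a 4.96 and 3.73, the kinase gene Map4k4 4.52 and 3.44 and the palmitoyltransferase gene Zdhhc18 4.36 and 3.39, again at different starts.

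Genes of meiosis held the most gained promoters of the 5 germ cell lists. Of 46 genes of meiosis, 7 and 6 were in the P7 lists and 31 in each P14 list. Of these genes 13 (28.3%) were gained, 1 was kept and none was lost, against 12.8% gained over all protein-coding genes. Among the 32 with H3K4me3 in all 4 H3K4me3 lists 12 (37.5%) were gained, against 19.4%, and at equal list length 7 of 46 (15.2%) were, against 6.46%. The gained genes included parts of the synaptonemal complex, which joins homologous chromosomes. Sycp1, its transverse filament, had fold enrichments of 4.48 and 4.12 at P14. The central element genes Syce1 and Syce2 had 4.8 and 5.71, and 3.81 and 3.06, and Sycp2 of the lateral element had 5.43 and 4.52. Msh4, a crossover factor, had 4.12 and 3.83 and Tex15 had 4.41 and 4.01. The cohesin genes Smc1b, Stag3 and Rad21l, named after their values were seen, were also gained. The kept gene was Ccnb1ip1, an E3 ligase of crossover sites, with 3.1 and 3.0 at P7 and 3.38 and 3.39 at P14. Spo11, which makes the meiotic breaks, was in 1 P7 and both P14 lists, Dmc1 in 1 P14 list alone and Rec8 in none.

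At P7 RNA of several of the gained meiosis genes was already present in sorted spermatogonia. In the 2 libraries of sorted WT spermatogonia Sycp1 stood at 287.7 and 289.02 TPM (a share of a library's transcripts, corrected for gene length), Syce1 at 240.06 and 197.04, Syce2 at 747.85 and 889.54 and Msh4 at 7.19 and 9.41. These libraries are WT by their labels. The study's methods describe the sorted control cells as from mice with Ddx4-GFP-CreERT2 that were heterozygous for floxed Prmt1. The study collected its P7 RNA samples after tamoxifen injection. In 3 libraries of WT testes at P7, whose labels name spermatogonia while the protocol names the testis, Sycp1 stood at 37.5, 52.32 and 38.18 TPM. Msh4 was low there, at 0.77, 1.19 and 0.87 TPM. Spo11, which was not gained, had 0.56, 0.31 and 0.9 TPM in these testes and 18.88 and 0.09 TPM in the sorted libraries. No RNA of P14 was measured, so levels at the age of the gain were not analysed here.

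Among 25 genes of differentiating spermatogonia, 7 and 4 were in the P7 lists and 15 and 13 in the P14 lists, with 2 kept and 4 gained. These shares, 8% and 16%, were near the 7.84% and 12.8% of all protein-coding genes. Kdm1b, a histone demethylase, was kept with fold enrichments of 2.63, 4.36, 5.03 and 4.85, and Dnmt3a was the other. Ddx4, the germ cell RNA helicase, was gained with 3.49 and 3.73, Sohlh2, a factor of spermatogonial differentiation, with 3.52 and 3.46, Ctcfl with 3.27 and 3.33 and Stk31 with 3.26 and 3.17. Kit was in 1 P14 list alone, and Stra8 in 1 P7 list and both P14 lists. Of 28 stem cell genes 5 and 7 were in the P7 lists and 12 in each P14 list, with 2 kept and 2 gained (7.14% each). The factor Etv5, needed for stem cell renewal, was kept with 3.64, 2.9, 4.91 and 5.16, and so was Ddx6 with 2.6, 2.92, 3.67 and 3.76. Id4 with 3.26 and 3.48 and Bmi1 with 2.45 and 2.85 were gained, but at equal list length none of the 28 was. Ctcfl and Stk31 also left the gained class at equal length. Zbtb16, Ret and Nanos2 were among 12 stem cell genes in no list.

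Of 40 spermatid genes 3 were kept, 6 gained and 18 in no list, among them Prm1. The kept share of 7.5% and the gained share of 15% were near those of all protein-coding genes. Tbpl1, a TBP relative of spermatids, was kept with 3.64, 3.02, 5.7 and 4.49, Hspa2 with 3.37, 3.46, 3.07 and 3.86 and Crem with 3.4, 2.52, 2.68 and 3.14. Mybl1, the master factor of pachytene transcription, was gained with 3.94 and 4.67, and Brdt, a testis bromodomain protein, with 3.67 and 3.48. Ybx2 had 3.52 and 3.01, Meig1 3.26 and 3.69 and Tssk1 3.23 and 4.02. Tnp2, a transition protein at 0 TPM in all 5 WT libraries of P7, had 3.07 and 3.18, at summits 1485 and 2831 bases downstream. Of 25 piRNA pathway genes 5 were gained and 1 kept, and 3 (12%) were gained at equal list length, against 6.46% of all genes. Exd1 was kept with 3.44, 3.44, 4.22 and 5.22, and Tdrd9 was gained with 3.55 and 4.44, Tdrd5 with 3.26 and 3.48 and Tdrd6 with 3.46 and 2.78. For Tdrd9, and for Tdrd5, the peaks of the P14 lists lay at different start sites of the gene. At equal list length Tdrd5, Tdrd6 and Meig1 left the gained class, and Hspa2 and Crem the kept class.

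The lists of somatic genes of the testis were short. Of 24 Sertoli cell genes, 5 and 8 were in the P7 lists and 9 and 7 in the P14 lists, with 2 kept, 1 lost and 0 gained. Of 11 Leydig cell genes 1 was gained and 0 were kept, and of 18 genes of peritubular and other somatic cells 1 was gained and 0 were kept. The gained shares were 0%, 9.09% and 5.56%, against 12.8% of all protein-coding genes, and with so few genes these differences were not tested. The Sertoli genes summed to 10407 to 11129 TPM in whole testes and to 557 and 616 TPM in sorted spermatogonia, with 2 and 4 of the 24 at 0 in the sorted libraries. Among the Sertoli genes Wt1 and Vim were kept, Cldn11 was lost, Sox9 was in 1 list of each age, and Amh, Gata4 and Inha were in 1 P7 list and both P14 lists. The germ cell gene Dazl had the same pattern as Amh. The study describes a check of the germ cell share in the P7 filtrate, which was not analysed here. The files used here do not measure the makeup of the suspensions at either age, and its part in the gene counts was not tested.

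Among the PRMT genes, 4 of 9 were kept (44.4%, against 7.84% of all protein-coding genes). Prmt1, the main type I enzyme, had fold enrichments of 2.94 and 3.03 at P7 and 2.99 and 3.54 at P14, with summits between -423 and 174 bases from a start. Prmt2 had 4.86 and 3.17 at P7 and 2.86 and 4.38 at P14, but at different start sites, at its 5′ end in 1 list of each age and near another start of the gene in the other 2 lists, and it left the kept class at equal list length. Carm1 had 4.27, 5.31, 5.56 and 3.47, in a region that all 31 WT lists held. Prmt9 had 4.43, 3.12, 4.58 and 3.42. Prmt8, mainly a brain enzyme, was gained with 3.22 and 3.59 and had at most 0.39 TPM in P7 RNA. Prmt3, Prmt5 and Prmt6 were in 3, 3 and 2 lists and Prmt7 in none. Of 19 genes for readers of methylarginine 7 (36.8%) were gained and 3 kept, against 12.8% gained over all genes, and at equal list length 3 (15.8%) were gained, against 6.46%. Among the 15 with H3K4me3 in all 4 H3K4me3 lists 5 (33.3%) were gained, against 19.4%. At equal length 2 of these 15 (13.3%) were, near the 10.5% of all such genes. The gained Tdrd5, Tdrd6, Tdrd9 and Stk31 are also in the piRNA or differentiating lists above.

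Housekeeping groups also held gained promoters. Of 76 genes of oxidative phosphorylation 23 (30.3%) were gained and 7 kept, of 39 proteasome genes 11 (28.2%) and 1, of 82 ribosomal protein genes 18 (22.0%) and 5, and of 60 replication histone genes 17 (28.3%) and 7. Over all protein-coding genes 12.8% were gained and 7.84% kept. Splicing factor genes were kept most often after the PRMT genes, with 8 of 34 (23.5%) kept and 9 (26.5%) gained. At equal length the gained shares were 23.7% for oxidative phosphorylation, 12.8% for the proteasome, 13.4% for ribosomal proteins, 15.0% for histones and 17.6% for splicing factors, against 6.46% of all genes. Of 39 Hox genes 11 (28.2%) were gained, against 12.8% of all genes, and 4 (10.3%) at equal length. Of 1092 olfactory receptor genes, the sensors of the nose, 7 were gained, 2 kept and 1006 in no list, and of 326 vomeronasal receptor genes 0 were gained and 3 kept. Among all genes of a list, the gained share of meiosis genes (28.3%) was thus about that of the proteasome, histone and Hox groups. Among genes with H3K4me3 in all 4 H3K4me3 lists it was 37.5%, against 30.6%, 26.4% and 29.4% in those groups. Of such genes 31% were gained for oxidative phosphorylation, 26.5% for splicing factors and 22.5% for ribosomal proteins, against 19.4% of all. At equal length these shares were 18.8% for meiosis, 25.4% for oxidative phosphorylation and 11.8% to 17.6% for the others, against 10.5%. These differences were not tested.

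**Figure D4:**
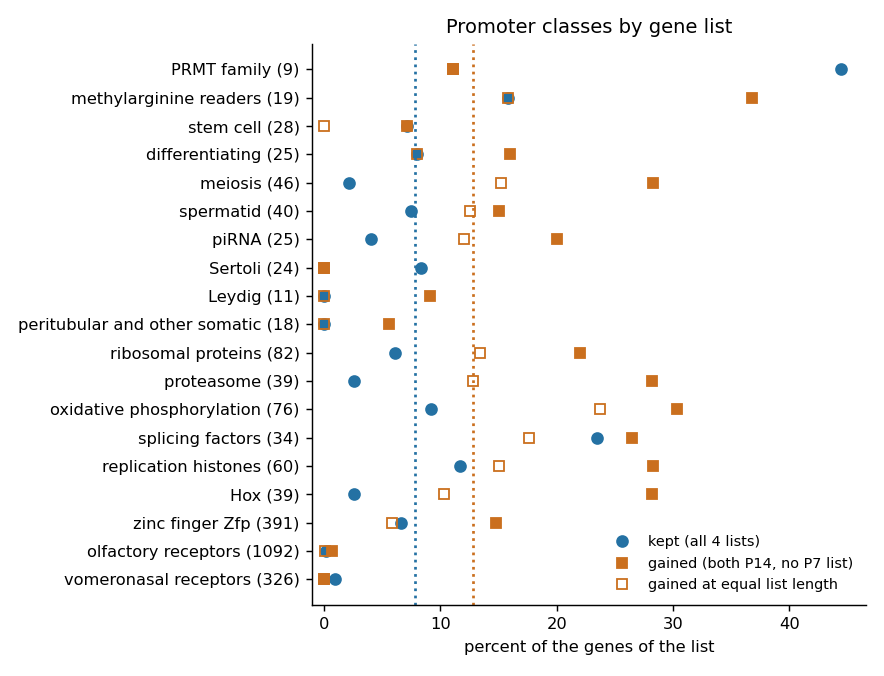
Percent of the genes of each list, with its size in brackets, that were kept (circles), gained (filled squares) or gained at equal list length (open squares, hidden where a filled square lies on top). Dotted lines give the share of all protein-coding genes, 7.84% kept (blue) and 12.8% gained (orange). Meiosis, proteasome, oxidative phosphorylation and histone genes lie right of the gained line, and Sertoli and receptor genes left of it.

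CpG-rich promoters made up most of both classes. Promoters with a CpG ratio of at least 0.6 and at least 50% G and C over 1000 bases belonged to 76.7% of kept, 72.2% of gained and 47.6% of lost genes, and to 15.2% of genes in no list, against 44.4% of all. Of the 9738 CpG-rich promoters 13.5% were kept and 20.8% gained, and of the 12184 others 3.27% and 6.39%.

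Kept and gained genes were mostly expressed at P7. In 3 whole WT testes 93.5% to 93.8% of kept genes, 86.9% to 87.5% of gained genes and 30.7% to 31% of genes in no list reached 1 TPM, with medians of 30.4 to 33.8, 20.2 to 22.0 and 0.04 TPM. Over all protein-coding genes the share was 62.4% to 62.6%. In sorted spermatogonia the shares were 87.6% and 85.4% for kept, 78.1% and 75.1% for gained and 59.0% and 56.2% for lost genes, against 51.5% and 48.6% of all genes. With H3K4me3 in all 4 H3K4me3 lists required, genes in no list reached 1 TPM in 84.2% to 85.0% of cases in whole testes, against 92.8% to 93.5% of gained genes. All such genes together did in 91.6% to 91.9% of cases and lost genes in 96.1% to 97.4%. The gained share was thus near that of all genes with H3K4me3. The share of genes marked in both P14 lists was 4.67% under 0.1 TPM, 30.7% from 1 to 10 TPM and 57.7% at 100 TPM and over, and the share marked in both P7 lists was 1.5%, 8.14% and 18.4%.

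**Figure D5:**
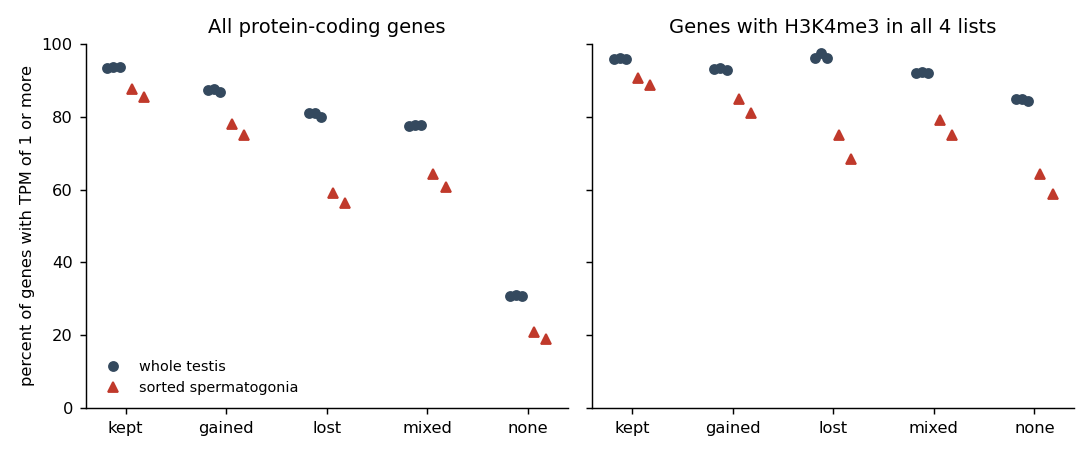
Percent of genes with at least 1 TPM in each P7 WT library, by promoter class, for all protein-coding genes (left) and for genes with H3K4me3 in all 4 lists (right). Each circle is a library of whole testis and each triangle a library of sorted spermatogonia, and mixed are genes of other patterns. Kept genes stand highest among all genes, at 93.5% to 93.8% in whole testes, and genes in no list lowest, at 30.7% to 31%.

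The X chromosome carried few of the peaks at either age. It held 0.708% and 0.84% of the P7 peaks and 0.922% and 0.756% of the P14 peaks, which overlap (0.774% ± 0.0935 against 0.839% ± 0.118, SD, n = 2 each, exact permutation p = 0.667). Without the first P7 list or the first P14 list the mean difference changed sign. X makes up 6.28% of the genome and 4.32% of protein-coding genes, and the H3K4me3 lists had 3.4% to 3.7% of their peaks there. H3K27ac lists had 1.46% to 2.11%. The lists of the other arginine marks were about as low as those of H3R8me2a. Their X shares were 0.489% to 0.962% for H3R2me2a, 0.593% to 0.725% for H4R3me2a and 0.447% to 0.703% for H4R3me1. For H4R3me2s they were 0.619% to 1.34%. Of 948 X-linked genes 4 were kept and 32 gained. Among the 442 of them with H3K4me3 in all 4 lists 0.905% were kept, 6.79% gained and 68.1% in no list, against 13.0%, 19.9% and 12.9% of such autosomal genes. Male cells hold a single X, and its copy number and the density of the mark on it cannot be told apart in these lists.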

How the data were processed

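CUT&Tag peak lists of WT testicular cells (4 for H3R8me2a, 27 for 6 other marks) and 5 gene tables of P7 RNA labelled WT were used. The authors called peaks for each sample with MACS2 2.1.0 at a p below 0.005 on mm10, after trimming with fastp 0.23.2, per the labels and the study's methods. The aligner and control were not named in any source used here. Each deposited list gives a peak's fold enrichment, a ratio over local background, and its −log10 p and −log10 q. These were used within a list only. The authors obtained the deposited TPM values with RSEM.

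Summits were placed on the 141767 transcripts of GENCODE vM21, and no peak passed a chromosome end of GRCm38. Peaks overlapped at 1 bp or more. Regions are merged peaks. Lists of equal length held the best 15361 peaks by −log10 p. List values were compared by two-sided exact permutation tests. Gene classes are counts with no test, since the genes of a list are not replicates. TPM matched 21897 of 21951 protein-coding genes by identifier. Sequence and repeat masking came from the GRCm38.p6 FASTA, and 21934 gene starts had full sequence. Overlap and class functions were checked on simulated lists. Python 3.11.15, numpy 2.4.6 and pandas 2.3.3 were used.

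Named genes are the 10 best kept, 10 best gained and 5 best lost by mean percentile of −log10 p within lists, the PRMT family, and up to 6 kept and 6 gained genes of each of 5 germ cell lists, with the 3 best regions outside promoters. Genes given only by the number of lists that hold them (such as Spo11, Kit, Zbtb16 and Wt1) were named after their values were seen. The 19 gene lists hold 248 hand-written entries, 3 of them unmatched, and name patterns. The members and lists were chosen with earlier results of these data known. At the outset 38 alternatives were listed, and 8 were added after seeing the data. Knockout samples were not used here.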

Additional observations from a re-analysis of the deposited data

Results flagged for a closer look

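Under the same comparison of ages, every P14 list moved opposite to H3R8me2a in 3 cases, none of which was tested as a difference. The promoter share of H3K27ac peaks fell from 49.6% and 50.7% at P7 to 48.5% and 44.5% at P14, a mean difference of -3.61 points, and that of H3K4me3 from 85.9% and 87.1% to 69.2% and 68.5%, a difference of -17.7 points. The median width of H3K4me3 peaks went from 853 and 793 bases to 689 and 726 bases, a difference of -116 bases. For H3R8me2a the same differences were 5.95 points and 18 bases. With 2 lists an age, no group was large enough to test for a single aberrant list.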

How the results depend on the processing

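Of the 8 results, those on list length and promoter share kept the P14 value above the P7 value in each alternative run. So did mean width, but at a q of at most 0.01 the difference was 1.0 base, and the second P14 list (383 bases) lay below both P7 lists. At a q of at most 0.01 replicate overlap differed by -0.152 percentage points (46.2% at P7, 46.0% at P14) and the X share by -0.748 points (1.69% and 0.946%, exact permutation p = 0.33), each opposite to the full lists. There 202 genes were kept, 1840 gained and 11 lost. At equal list length 1419 were gained and 275 lost, and with promoters of 1000 bp 54 were lost. Shorter lists and windows hold fewer genes by construction. Leaving out 1 list, the X difference ran from -0.0179 (without the first P14 list) over -0.000713 (without the first P7 list) to 0.149 points, the kept count from 1834 to 3090, the gained count from 4149 to 4707 and the lost count from 218 to 580. Each such count asks for fewer lists. Kept genes numbered 3090 and 3070 without the first or second P7 list, and gained genes 4500 and 4707 without the first or second P14 list. Width differed by 5.0 bases without the second P14 list and by 31 without the first, so that list decides its size. Replicate numbers are shared by the ages but not tied to a litter or day in the labels, and across 21951 genes the replicate differences of the ages correlated at 0.00203. With a replicate block (paired difference) the list length still differed by 16200.0 peaks, with 0.5 as the smallest exact p that 2 pairs allow. Of the named genes 20 of 23 kept, 25 of 32 gained and 5 of 5 lost held their class at equal list length, and 11, 15 and 0 at a q of at most 0.01. Unknown read depth limits each count.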

Other observations

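Zinc finger genes named Zfp, 391 in number, had 26 kept, 58 gained, 3 lost and 101 in no list. These were 6.65% kept and 14.8% gained, near the 7.84% and 12.8% of all protein-coding genes, and 5.88% were gained at equal list length, against 6.46%. On the Y chromosome, 1 of 183 protein-coding genes was kept and 5 were gained. Once regions held by all 31 WT lists were set aside, the best kept genes were Sspn, with fold enrichments of 14.4 and 14.1 at P7 and 16.0 and 13.8 at P14, and Csf2ra, with 8.04, 10.7, 7.48 and 6.59, held by 22 and 14 of the 27 lists of other marks. Gsdma2, ranked 10 among them, had 7.84, 6.4, 7.89 and 6.42 and was held by 3 of the 27 lists. At neither age did both H3K4me3 lists mark its promoter. These genes were named after their values were seen.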
